A study of Danio rerio with 9 samples.

Results

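Zebrafish embryos injected with mRNA for Hif-3α were compared directly with embryos injected with mRNA for Hif-1α, at 12 h after fertilization. The comparison uses 6 of the 9 arrays of the study, 3 for each injection, chosen by their titles and set against each other in pairs of the same replicate number. All embryos were whole Tuebingen embryos. Each array holds the RNA of 1 pool of 60 embryos, and the 3 replicates of a group came from independent microinjection experiments. The controls were 3 pools of embryos given mRNA of the green fluorescent protein (GFP) instead. They take no part in the main tests, and their levels are given beside those of some named genes. The mRNA was given to the whole embryo and not through a tissue-specific promoter, so every level is an average over all tissues, and fewer cells of a type cannot be told apart from less RNA per cell. The labels give neither the dose of mRNA nor the oxygen level.

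Hypoxia-inducible factor (HIF) is a transcription factor made of an oxygen-sensitive alpha subunit and the partner Arnt. In normal oxygen, prolyl hydroxylases mark the alpha subunit and the von Hippel-Lindau protein Vhl directs it to degradation. Hif-1α is known above all for raising glucose uptake and glycolysis when oxygen is low. Hif-3α is a related subunit with several splice forms, some of which oppose the other subunits and some of which activate genes.

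A level is the log2 signal of a probe minus the 75th percentile of its array, so levels of the same gene can be set against each other across arrays and levels of different genes cannot. A difference is the level with Hif-3α minus that with Hif-1α, with its standard error (SE), from a limma fit over the 6 arrays with the replicate number as a block (n = 3 pairs). A gene is called higher or lower when its p, adjusted by Benjamini-Hochberg over the 19178 genes or transcripts tested, was under 0.05. On the 6 arrays 67.6% to 75.3% of 43603 probes lay well above background, and arrays correlated with each other at 0.967 to 0.989 across genes. Hif-3α replicate 1 held 431 non-uniform spots, against 0 to 3 on each of the other compared arrays. The 14 defining markers looked for, such as the somite gene myod1, the notochord gene tbxta, the neural gene sox2, the blood gene gata1a and the epidermal gene krt4, were well above background on 6 of 6 arrays.

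The slides and scan days of the groups differed, and this bears on every result. The pair of replicate 2 lay on 1 slide, whereas Hif-1α replicates 1 and 3 shared another slide, scanned on a day with no other array. In pairs 1 and 3 the injection and the scan day cannot be told apart, so the value of pair 2 is given as a measure within a slide.

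The label of the Hif-3α arrays was checked first on its own gene, which the reference table names hif1al, with Hif-3alpha as a synonym. Probe A_15_P281686 stood at -1.95, -1.72 and -1.78 on the Hif-1α arrays and at 6.75, 6.29 and 6.64 on the Hif-3α arrays, for replicates 1, 2 and 3. The difference was 8.37 ± 0.16 (SE), or 332-fold (limma, adjusted p = 0.000827 over 30509 probes, of which 10.4% passed). Probes A_15_P731526 and A_15_P404495 differed by 6.37 ± 0.16 and 5.78 ± 0.10. The remaining probe, A_15_P621106, differed by 0.05 ± 0.10 (adjusted p = 0.740). It is the brightest probe of the gene and stands for hif1al among the genes tested. No probe could be matched to hif1aa or hif1ab, and the injected Hif-1α RNA was not looked for. The 2 probes of epas1b, the gene of a Hif-2α subunit, differed by -0.14 ± 0.10 and -0.31 ± 0.11 and did not pass (adjusted p = 0.387 and 0.120). The probe of hif1al2 was well above background on Hif-3α replicate 1 alone, at -2.71, against -8.45 to -7.64 on the other compared arrays.

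Of the genes tested, 2076 (10.8%) passed: 1049 (5.47%) were higher and 1027 (5.36%) lower with Hif-3α. Genes lower with Hif-3α differed by more. At least 2-fold differences were found for 354 of the lower genes (1.85% of genes tested) and 98 of the higher ones (0.511%), and at least 8-fold differences for 47 lower genes and 0 higher ones. With each gene represented by its brightest probe, which leaves out the other hif1al probes, the largest differences among the named genes were 6.40 log2 units downward and 2.70 upward. Centred on the median of each array instead, 1624 genes were higher and 929 lower, since the median difference of all genes is then 0.10 in place of 0.04. Without the pairing 209 genes (1.09%) passed, 49 higher and 160 lower, and all 209 were among the 2076. Counts without the pairing in each list below stand beside this share. Leaving out replicate 1, 2 or 3 gave 61, 26 and 71 genes, with 1 residual degree of freedom in place of 2. Of these, 61, 24 and 69 were among the 2076. With the scan day as a block over 9 arrays 3 transcripts passed (1166 at an unadjusted p under 0.05). Within pair 2, on 1 slide, all 2076 genes had the sign of their call, a direction that the call itself in part requires.

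**Figure D1:**
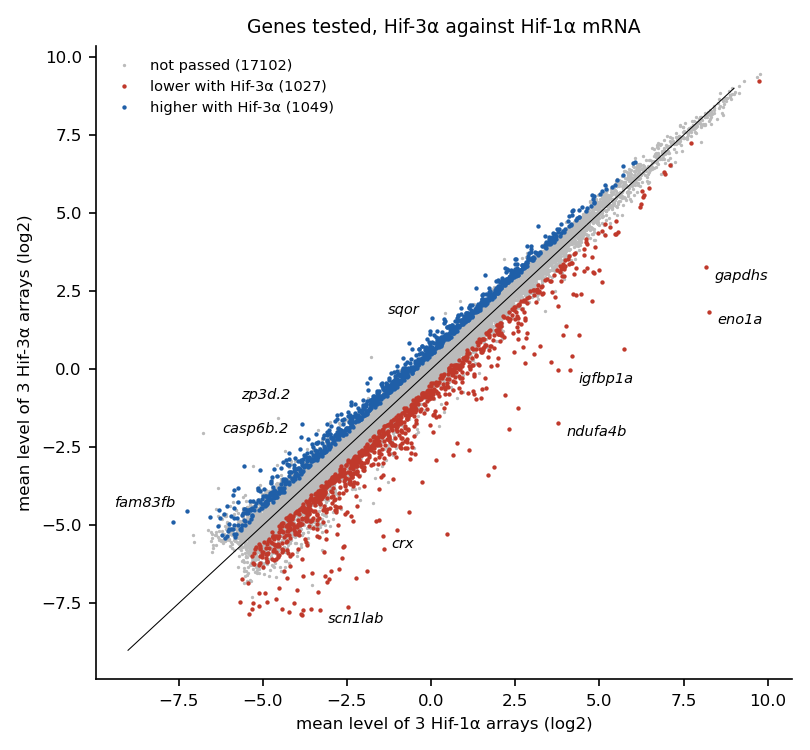
Mean level of each gene on the 3 Hif-1α arrays (x axis, log2) and the 3 Hif-3α arrays (y axis, log2), with genes that passed in red (1027 lower with Hif-3α) or blue (1049 higher) and the line of equal levels. The red points reach farther from the line than the blue ones.

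The enzymes of glycolysis, which split glucose to pyruvate, held large differences between the injections, up to that of eno1a. Of 24 tested members (29 on the array) 11 were lower with Hif-3α and 2 higher, against 5.36% and 5.47% of all genes, and all 11 differed at least 2-fold. The median difference of the list was -0.38 over all 6 arrays and -0.26 within pair 2, beside 0.04 and 0.01 for all genes. Without the pairing 10 members passed, beside 1.09% of all genes.

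gapdhs, a glyceraldehyde-3-phosphate dehydrogenase, stood at 8.27, 8.24 and 7.98 in Hif-1α replicates 1, 2 and 3 and at 3.39, 3.29 and 3.098 in the Hif-3α replicates. The groups lay far apart and each was tight, with a difference of -4.90 ± 0.09 or 29.9-fold (adjusted p = 0.00253). On the control arrays it stood at 2.62, 3.93 and 3.103, around the Hif-3α levels. Its paralogue gapdh did not pass, with 4.36, 4.65 and 4.27 in the Hif-1α embryos and 4.22, 4.50 and 4.05 in the Hif-3α embryos (-0.17 ± 0.09, adjusted p = 0.233).

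Of the enolases, which make phosphoenolpyruvate, eno1a and eno1b were far lower with Hif-3α, while eno3 differed by -0.19 and did not pass. eno1a stood at 8.22, 8.34 and 8.18 with Hif-1α and at 1.02, 1.19 and 3.33 with Hif-3α, a difference of -6.40 ± 0.52 or 84.4-fold (adjusted p = 0.0200). Its Hif-3α replicate 3 stood above the other Hif-3α arrays, and the controls, at 0.15, 5.23 and 2.55, were wider still. eno1b stood at 1.81, 1.32 and 1.93 with Hif-1α and at -3.49, -3.51 and -3.14 with Hif-3α (-5.06 ± 0.12, 33.5-fold, adjusted p = 0.00268).

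The aldolase aldocb, which cleaves fructose bisphosphate, stood at 5.73, 5.87 and 5.56 with Hif-1α and at -0.16, 0.50 and 1.64 with Hif-3α. The groups did not overlap, and the difference was -5.06 ± 0.40 (33.4-fold, adjusted p = 0.0193), although its 5 probes ranged from -5.15 to -1.75. The pyruvate kinase pkma stood at 2.41, 2.91 and 2.46 against -1.31, -1.28 and -1.11 (-3.83 ± 0.15, 14.2-fold, adjusted p = 0.00749). The triosephosphate isomerase tpi1b was lower by 2.82 ± 0.12 (7.05-fold, adjusted p = 0.00749). The other enzymes that passed, named after their values were seen, were gpia (-3.32), ldha (-2.49), pgk1 (-2.27), pgam1a (-1.74) and ldhbb (-1.29), the isomerase, lactate dehydrogenases, kinase and mutase of the pathway.

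Both genes that went the other way differed little. The hexokinase hk2 stood at -2.62, -2.14 and -2.31 with Hif-1α and at -1.98, -1.70 and -1.77 with Hif-3α (0.54 ± 0.09, adjusted p = 0.0421, and 0.166 without the pairing). The muscle-type aldolase aldoab was 0.79 ± 0.09 higher with Hif-3α (adjusted p = 0.0279). A second probe of the gene, well above background on 2 of 3 Hif-3α arrays, differed by -0.30 ± 0.76 (adjusted p = 0.801 over probes).

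**Figure D2:**
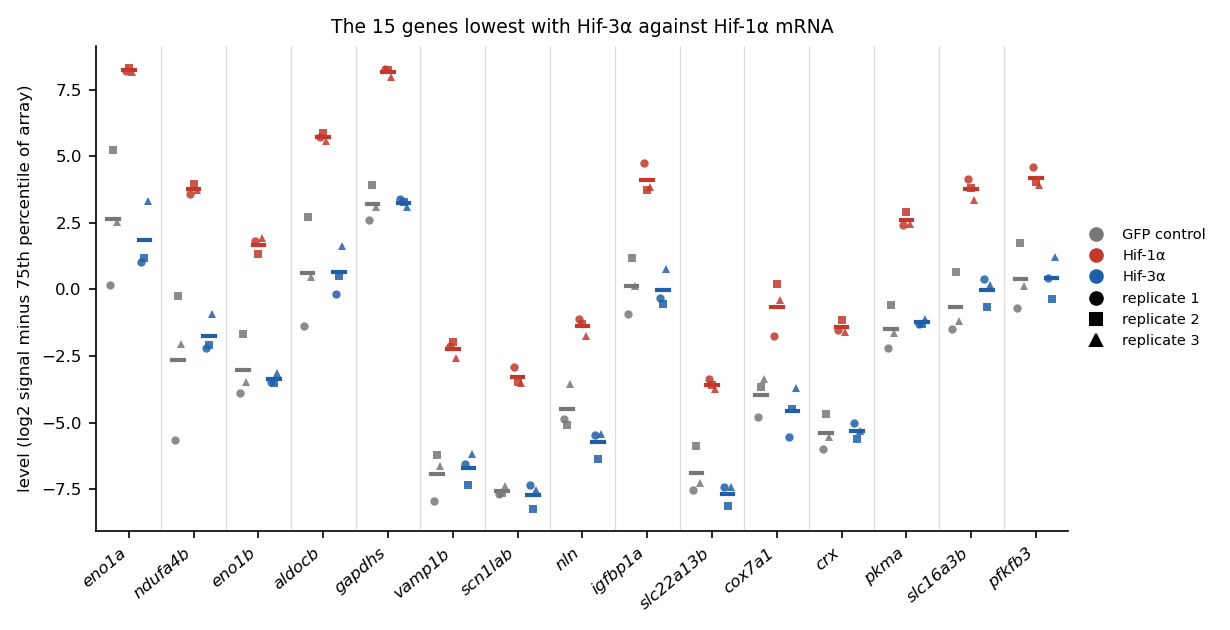
Level on each array (y axis, log2 signal minus the 75th percentile of the array) of the 15 named genes lowest with Hif-3α against Hif-1α, for the GFP control, Hif-1α and Hif-3α arrays; shapes give the replicate and bars the group mean. The Hif-1α points lie above all Hif-3α points for each gene, and the control points of eno1a spread from 0.15 to 5.23.

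Genes of glucose and lactate transport and of the pyruvate switch went mostly the same way. Of 13 tested genes (17 on the array) 4 (30.8%) were lower with Hif-3α and 1 (7.69%) higher, beside 5.36% and 5.47% of all genes. The median difference was -0.40, and 4 members passed without the pairing, beside 1.09% of all genes. slc16a3b, an exporter of lactate, stood at 4.14, 3.80 and 3.38 with Hif-1α and at 0.40, -0.64 and 0.18 with Hif-3α (-3.79 ± 0.25, 13.9-fold, adjusted p = 0.0151). Its paralogue slc16a3a, well above background on 2 of 3 Hif-3α arrays, was lower too (-3.07 ± 0.13, adjusted p = 0.00749). pfkfb3, which makes the activator of phosphofructokinase, stood at 4.61, 4.03 and 3.93 against 0.45, -0.37 and 1.24 (-3.75 ± 0.36, adjusted p = 0.0255). The glucose transporter slc2a3a stood at 2.35, 2.27 and 2.02 against -1.57, -0.43 and -0.45 (-3.03 ± 0.31, adjusted p = 0.0272). None of these genes overlapped between the injections, as was the case for 5203 of the 19178 genes tested. mpc2b, of the mitochondrial pyruvate carrier, was 0.51 ± 0.10 higher with Hif-3α (adjusted p = 0.0461).

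In glycogen metabolism 6 of 11 tested members (14 on the array) were lower with Hif-3α and 0 higher with limma. The share lower was 54.5%, beside 5.36% of all genes. The median was -0.76, or -0.87 within pair 2. With normexp it was -0.21 after the 75th percentile and -0.48 after quantile normalization, beside 0.20 and 0.03 for all genes. Without the pairing 4 members passed, beside 1.09% of all genes. pgm1, which links glucose phosphates to glycogen, stood at 4.39, 5.21 and 4.77 with Hif-1α and at 1.69, 2.52 and 2.36 with Hif-3α, with a similar gap in each pair (-2.60 ± 0.11, adjusted p = 0.00749). gyg1a, the glycogenin that primes glycogen, stood at 4.59, 4.86 and 4.46 against 3.52, 3.29 and 2.89 (-1.40 ± 0.14, adjusted p = 0.0258). In the controls gyg1a stood lower than in both, at 1.67, 2.14 and 1.48. ppp1r3da, a subunit that brings protein phosphatase to glycogen, differed by -3.10 ± 0.18 (adjusted p = 0.0135) and was well above background on 2 of 3 Hif-3α arrays.

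Among 34 tested HIF target genes outside these pathways (38 on the array) 14 (41.2%) were lower with Hif-3α and 1 (2.94%) higher. Of all genes 5.36% were lower and 5.47% higher. A negative difference was found for 30 of the 34 in the main scaling, where the median of all genes was 0.04. The median was -0.45, or -0.40 within pair 2, and 6 members passed without the pairing, beside 1.09% of all genes. With normexp it was -0.21 after the 75th percentile and -0.20 after quantile normalization, beside 0.20 and 0.03 for all genes. igfbp1a, a secreted protein that binds insulin-like growth factors, stood at 4.76, 3.75 and 3.86 with Hif-1α and at -0.31, -0.55 and 0.78 with Hif-3α. Its groups did not overlap, with a difference of -4.15 ± 0.40 (17.8-fold, adjusted p = 0.0255), while the paralogue igfbp1b did not pass (-0.27 ± 0.09, adjusted p = 0.124). ndrg1a stood at 5.09, 4.91 and 4.94 against 3.19, 2.90 and 3.45 (-1.81 ± 0.13, adjusted p = 0.0181), and the adenylate kinase ak4 was lower by 1.83 ± 0.15 (adjusted p = 0.0193). loxl2b, an oxidase that crosslinks collagen, differed by -1.64 ± 0.08 (adjusted p = 0.0112, and 0.117 without the pairing), and ankrd37 by -1.56 ± 0.10 (adjusted p = 0.0151, and 0.0686 without it).

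Other known targets went the other way or did not pass. ddit4, a brake on the growth kinase mTOR, was higher with Hif-3α in each pair, at 2.43, 0.73 and 1.59 against 1.80, 0.01 and 1.05 (0.63 ± 0.09, adjusted p = 0.0366). Its groups overlapped, and without the pairing its adjusted p was 0.579. egln3, a HIF prolyl hydroxylase, did not pass, at 4.02, 3.28 and 3.79 with Hif-1α and 3.83, 3.03 and 3.30 with Hif-3α (-0.31 ± 0.10, adjusted p = 0.115), against -0.81, 3.12 and 0.70 in the controls. With normexp and quantile normalization it passed (-0.43, adjusted p = 0.0286). vegfaa, a growth factor of vessels, differed by -0.02 ± 0.11 (adjusted p = 0.915).

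Of 14 tested genes of oxygen sensing and HIF degradation 1 passed, lower with Hif-3α (7.14%, beside 5.36% of all genes). vhl stood at -0.64, -0.77 and -0.93 with Hif-1α and at -1.89, -1.9999 and -2.20 with Hif-3α, a gap of nearly the same size in each pair (-1.25 ± 0.08, 2.38-fold, adjusted p = 0.0151). In the controls it stood at -2.56, -2.11 and -3.01.

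The genes of the collagen-modifying enzymes and of mitophagy overlap with the HIF targets and add few others. Of 14 tested collagen genes (16 on the array) 4 were lower with Hif-3α (28.6%, beside 5.36% of all genes), 2 of them without the pairing. They were loxl2b, the prolyl hydroxylases p4ha1b (-1.08 ± 0.14, adjusted p = 0.0333) and p4ha2 (-0.88 ± 0.16, adjusted p = 0.0443), and the lysyl hydroxylase plod1a (-1.03 ± 0.16, adjusted p = 0.0383). Of 14 tested mitophagy and autophagy genes (18 on the array) 3 (21.4%) were lower and 0 higher. bnip3lb, a receptor that marks mitochondria for removal, stood at 2.81, 2.81 and 2.67 against 2.03, 1.78 and 1.70 (-0.92 ± 0.10, adjusted p = 0.0272), above its control levels of 0.14, 1.49 and 0.83. The autophagy protein genes map1lc3c and map1lc3a differed by -1.30 ± 0.10 (adjusted p = 0.0187) and -0.51 ± 0.09 (adjusted p = 0.0426).

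In cytochrome c oxidase, the last complex of the respiratory chain, a few subunits differed strongly, cox6c differed weakly, and the rest did not pass. Of 15 tested members 5 (33.3%, beside 5.36% of all genes) were lower with Hif-3α and 0 higher, and 3 passed without the pairing. The list median had no settled sign: it was -0.06, -0.31 within pair 2, 0.02 with quantile normalization, and -0.16, 0.11 and 0.03 without replicate 1, 2 or 3. ndufa4b, a subunit with a paralogue, stood at 3.60, 3.96 and 3.74 with Hif-1α and at -2.18, -2.09 and -0.92 with Hif-3α (-5.50 ± 0.30, 45.3-fold, adjusted p = 0.0112). cox6b1 stood at 4.21, 4.60 and 4.39 against 0.85, 1.17 and 1.30 (-3.29 ± 0.11, 9.80-fold, adjusted p = 0.00531). Both varied more in the controls than in either injection, at -5.65, -0.24 and -2.05 for ndufa4b and -4.84, 0.54 and -1.17 for cox6b1. cox7a1, well above background on 2 of 3 Hif-3α arrays, differed by -3.93 ± 0.28 (adjusted p = 0.0169, and 0.0522 without the pairing), and cox5b2 by -2.28 ± 0.15 (adjusted p = 0.0151). Other cox5b2 probes differed by more, at -4.37 ± 0.26 and -3.67 ± 0.19 (limma over probes, adjusted p = 0.00761 and 0.00563). For cox6c the difference was -0.52 ± 0.09 (limma, adjusted p = 0.0444, and 0.129 without the pairing).

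The other respiratory complexes and the tricarboxylic acid cycle went the opposite way by small amounts. Of 58 tested subunits of complexes I to III and ATP synthase 6 (10.3%) were higher with Hif-3α and 0 lower. Of all genes 5.47% were higher and 5.36% lower. A positive difference was found for 49 of the 58 in the main scaling, where the median of all genes was itself 0.04. The list median was 0.25, above that of all genes except with normexp and the 75th percentile together. There it was 0.14 beside 0.20 for all genes. With normexp and quantile normalization it was 0.17 beside 0.03. In the tricarboxylic acid cycle 6 of 18 tested members (19 on the array) were higher, or 33.3%, and 0 lower. All 18 differences were positive in the main scaling, with a median of 0.31 beside 0.04 for all genes. No member of either list passed without the pairing, where 1.09% of all genes did. atp5f1b, the catalytic subunit of ATP synthase, stood at 5.84, 6.13 and 5.99 with Hif-1α and at 6.56, 6.59 and 6.67 with Hif-3α (0.62 ± 0.10, adjusted p = 0.0398). The malate dehydrogenase mdh1aa stood at 0.35, 0.67 and 0.66 against 1.06, 1.54 and 1.29 (0.74 ± 0.10, adjusted p = 0.0331), and dlat, of the pyruvate dehydrogenase complex, differed by 0.74 ± 0.09 (adjusted p = 0.0323). The control levels of mdh1aa, 1.63, 1.71 and 1.70, lay above both.

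**Figure D3:**
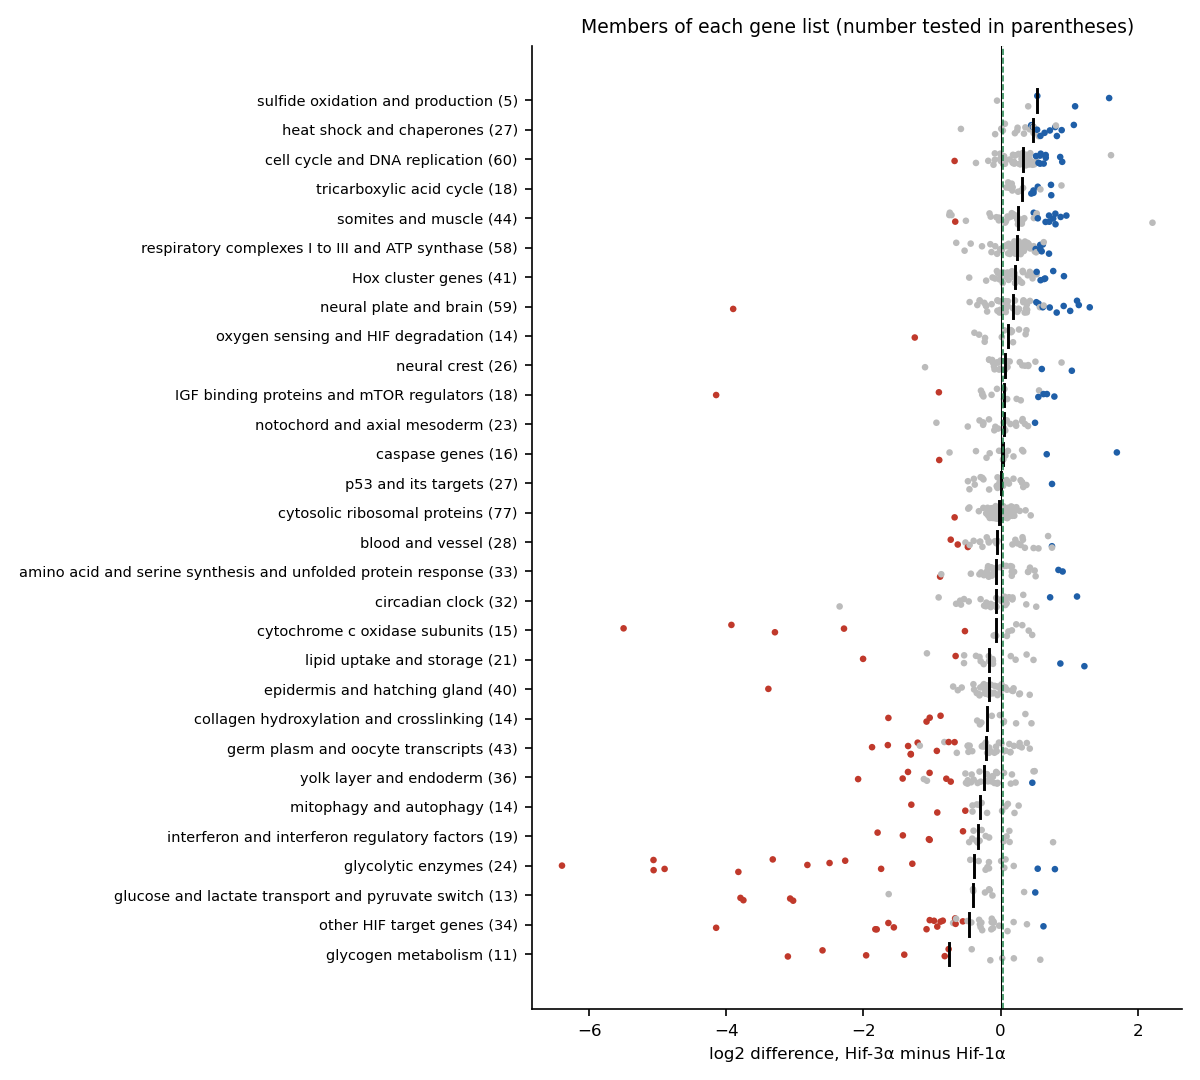
Log2 difference, Hif-3α minus Hif-1α, of each tested member of the gene lists with 5 or more tested members, with passing members in red (lower) or blue (higher), the list median as a black bar and the median of all genes as a dashed line at 0.04. Passing members of glycolysis, glycogen metabolism and cytochrome c oxidase reach to between -3.10 and -6.40, while those higher with Hif-3α stay under 2; with normexp correction and the 75th percentile the medians of somites, cell cycle, neural, Hox and respiratory genes fall below that of all genes.

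Some genes higher with Hif-3α than with Hif-1α also lay above the controls. sqor, which oxidises hydrogen sulfide in mitochondria, stood at 1.68, 1.92 and 1.29 with Hif-3α, at 0.12, 0.00 and 0.01 with Hif-1α and at -1.08, 0.20 and -0.68 in the controls. The Hif-3α arrays did not overlap with the others, and the difference from Hif-1α was 1.59 ± 0.15, or 3.00-fold (adjusted p = 0.0250, and 0.0190 without the pairing). A second sqor probe, well above background on all 6 arrays, differed by 0.75 ± 0.39 and did not pass (adjusted p = 0.239 over probes). In its list, sulfide oxidation and production, 3 of 5 tested members (6 on the array) were higher with Hif-3α and 0 lower with limma. The share higher was 60%, beside 5.47% of all genes. The 3 were sqor, ethe1 and gclm, of which gclm is a gene of glutathione synthesis. ethe1, the next enzyme of sulfide oxidation, stood at -2.12, -1.92 and -1.83 against -2.92, -3.14 and -3.08 (1.09 ± 0.13, adjusted p = 0.0309). gclm, which makes glutathione, differed by 0.54 ± 0.09 (adjusted p = 0.0412), but its second probe by -0.07 ± 0.15. The mean level of gclm was 1.72 in the controls, 1.73 with Hif-3α and 1.19 with Hif-1α, so it did not stand clearly above the controls.

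casp6b.2, a caspase gene, lay above the controls in both injections. It stood at -1.19, -2.71 and -2.58 with Hif-3α and at -3.11, -3.85 and -4.61 with Hif-1α, a difference of 1.70 ± 0.21 or 3.24-fold (adjusted p = 0.0316, and 0.170 without the pairing). In the controls, at -7.81, -7.62 and -8.15, it was not well above background on any array. Of 16 tested caspase genes and regulators (19 on the array) 2 (12.5%) were higher and 1 (6.25%) lower with Hif-3α, beside 5.47% and 5.36% of all genes. The lower one was casp9, which starts the mitochondrial path to cell death, at -2.39, -2.37 and -2.09 against -1.59, -1.48 and -1.09 (-0.89 ± 0.09, adjusted p = 0.0272).

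zp3d.2, a gene of an egg coat protein, stood at -1.33, -1.98 and -1.99 with Hif-3α, at -3.59, -4.04 and -3.82 with Hif-1α and at -5.48, -4.16 and -5.54 in the controls (2.05 ± 0.12, 4.15-fold, adjusted p = 0.0131). rab3c, a small GTPase of secretory vesicles, stood at -0.27, -0.18 and -0.40 with Hif-3α against -2.08, -1.50 and -1.86 with Hif-1α (1.53 ± 0.13, adjusted p = 0.0201). The potassium channel kcnk13a, detected on 1 of the 3 Hif-1α arrays, stood at -3.97, -4.02 and -4.11 against -6.12, -5.83 and -5.69 (adjusted p = 0.0184). These genes did not overlap between the injections, which also held for 5203 of the 19178 genes tested. The green opsin opn1mw1, detected on 2 of 3 Hif-1α arrays, was also higher with Hif-3α (adjusted p = 0.0491).

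A further pair of genes was dim with Hif-1α. No Hif-1α array had fam83fb or tmem182a well above background, so their folds are bounds against the lowest signal that was: at least 2.51-fold (adjusted p = 0.0371) and at least 2.17-fold higher (adjusted p = 0.0451). In the other direction scn1lab, a voltage-gated sodium channel, and slc22a13b, an organic anion transporter, were not well above background on any Hif-3α array. They were at least 6.40-fold (adjusted p = 0.00749) and 5.29-fold (adjusted p = 0.00914) lower with Hif-3α. vamp1b, a protein of vesicle fusion, and nln, a peptidase, were each well above background on 1 of 3 Hif-3α arrays and on each array of Hif-1α (adjusted p = 0.0193 and 0.0151).

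**Figure D4:**
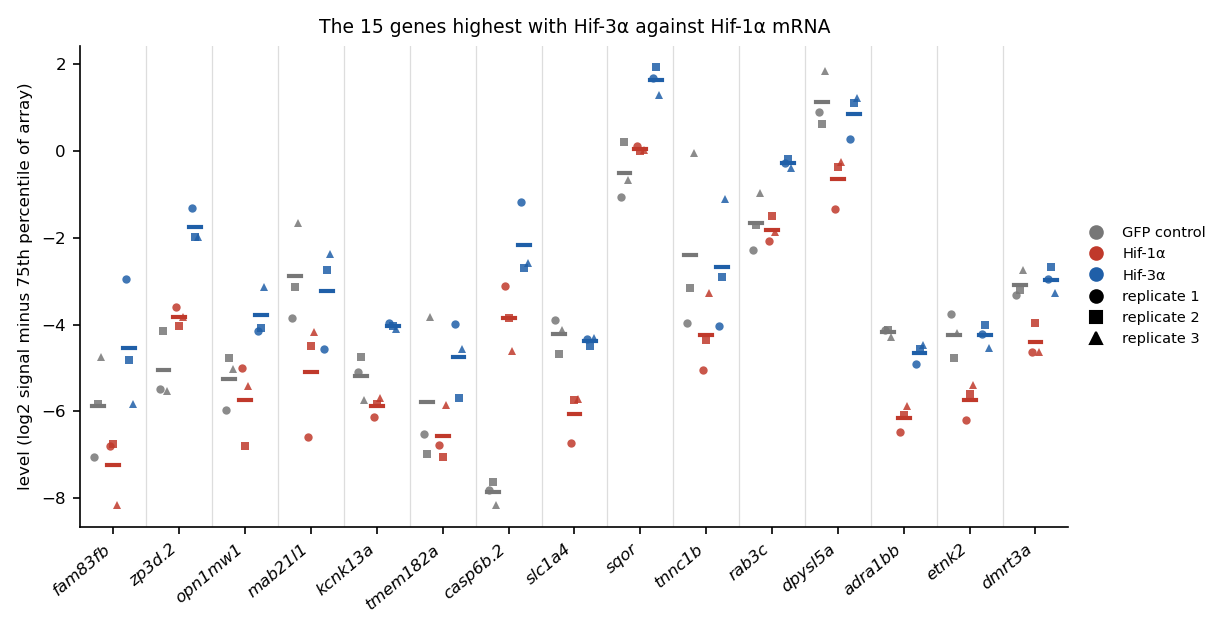
Level on each array (y axis, log2 signal minus the 75th percentile of the array) of the 15 named genes highest with Hif-3α against Hif-1α, drawn as in the plot of the 15 lowest. For casp6b.2 the controls lie below both injections, at -8.15 to -7.62, and for mab21l1 the Hif-1α points, at -6.59 to -4.18, lie lowest in each pair.

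Regulators of the eye and brain differed in both directions. Of 59 tested neural genes 11 (18.6%) were higher with Hif-3α and 1 (1.69%) lower, beside 5.47% and 5.36% of all genes. The median was 0.18, or 0.11 beside 0.20 for all genes with normexp and the 75th percentile. The lower one, crx, a transcription factor of photoreceptors and the pineal, stood at -1.54, -1.14 and -1.61 with Hif-1α and at -5.04, -5.62 and -5.33 with Hif-3α (-3.90 ± 0.22, 14.9-fold, adjusted p = 0.0113). aanat2, an enzyme of melatonin synthesis, was the other way round, at -0.94, -1.33 and -0.73 against 0.30, 0.09 and -0.03 (1.12 ± 0.17, adjusted p = 0.0372). The forebrain gene fezf1 stood at -2.20, -1.16 and -1.12 against -1.26, -0.15 and -0.02, and the eye field gene rx1 at -2.11, -1.13 and -0.80 against -1.30, -0.16 and 0.19. For these regulators the groups overlapped but every pair had nearly the same gap, 1.02 ± 0.09 for fezf1 (adjusted p = 0.0219) and 0.92 ± 0.09 for rx1 (adjusted p = 0.0271). Without the pairing 1 neural gene passed, crx.

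In somites and muscle 10 of 44 tested members (47 on the array) were higher with Hif-3α and 1 lower. These shares, 22.7% and 2.27%, stand beside 5.47% and 5.36% of all genes. The median was 0.25, or 0.14 beside 0.20 for all genes with normexp and the 75th percentile. None passed without the pairing, where 1.09% of all genes did. The muscle regulators myod1 and myog differed by 0.77 ± 0.10 (adjusted p = 0.0328) and 0.96 ± 0.10 (adjusted p = 0.0272), and the actins actc1b and acta1b by 0.80 ± 0.09 (adjusted p = 0.0304) and 0.88 ± 0.10 (adjusted p = 0.0296). Of the 6 acta1b probes, 2 did not pass, at 0.28 and 0.37. myog was lowest in replicate 1 of both groups, at -1.64, -0.55 and 0.03 with Hif-1α and -0.79, 0.34 and 1.16 with Hif-3α. her11, of the segmentation clock, was lower with Hif-3α (-0.66 ± 0.12, adjusted p = 0.0456). Of 41 tested Hox genes (46 on the array) 6 (14.6%) were higher and 0 lower with limma. No Hox gene passed without the pairing, where 1.09% of all genes did. hoxc11a was higher by 0.93 ± 0.11 (adjusted p = 0.0292, with another probe at 0.44 and an adjusted p of 0.222).

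The yolk layer and endoderm list went the opposite way, with 6 of 36 tested members (40 on the array) lower with Hif-3α and 1 higher. These shares, 16.7% and 2.78%, stand beside 5.36% and 5.47% of all genes, and the list median was -0.24. None passed without the pairing, where 1.09% of all genes did. mxtx1, a regulator of the yolk syncytial layer, stood at 1.73, 1.06 and 1.07 with Hif-1α and at 0.28, -0.10 and -0.58 with Hif-3α (-1.43 ± 0.13, adjusted p = 0.0220). sox32, which specifies endoderm, stood at 0.99, -1.95 and -0.81 against -1.61, -3.54 and -2.86 (-2.08 ± 0.21, adjusted p = 0.0272), and hnf4a differed by -1.35 ± 0.18 (adjusted p = 0.0338). The epidermal and hatching gland list had 1 passing gene among 40 tested (42 on the array), or 2.5% lower beside 5.36% of all genes. It was the cathepsin ctsl.1, at 0.24, 0.56 and 1.17 against -3.23, -2.26 and -2.70 (-3.39 ± 0.22, adjusted p = 0.0151). In blood and vessel 3 of 28 tested members (33 on the array) were lower, or 10.7%, and 1 higher, or 3.57%, beside 5.36% and 5.47% of all genes. They included gata6 at -0.73 ± 0.12 (adjusted p = 0.0405) and myb at 0.75 ± 0.10 (adjusted p = 0.0324).

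Germ plasm and oocyte transcripts, which the egg supplies, were lower with Hif-3α for 9 of 43 tested members (47 on the array) and higher for 0 with limma. The share lower was 20.9%, beside 5.36% of all genes, and the list median was -0.21. The egg coat gene zp3d.2, which was higher with Hif-3α by 2.05, is not a member of this list. Of the 9 lower members 1 passed without the pairing, the germline helicase tdrd9, at -0.59, -0.38 and -0.53 against -2.17, -2.35 and -1.92 (-1.64 ± 0.14, adjusted p = 0.0205). The linker histone h1m and the claudin cldnd were highest in replicate 1 of both groups. cldnd stood at 2.52, 1.25 and 1.03 against 0.58, -0.85 and -0.55 (-1.87 ± 0.13, adjusted p = 0.0159), and h1m differed by -1.31 ± 0.10 (adjusted p = 0.0187).

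DNA replication and chaperone genes were higher with Hif-3α by less than 1.1 log2 units wherever they passed. In the cell cycle list 10 of 60 tested members (62 on the array) were higher and 1 lower. These shares, 16.7% and 1.67%, stand beside 5.47% and 5.36% of all genes. The median was 0.33, or 0.18 beside 0.20 for all genes with normexp and the 75th percentile. mcm5, of the replicative helicase, stood at 4.81, 4.81 and 4.82 with Hif-1α and at 5.52, 5.49 and 5.31 with Hif-3α (0.63 ± 0.10, adjusted p = 0.0385). dut, which keeps uracil out of DNA, differed by 0.87 ± 0.10 (adjusted p = 0.0276) and alone passed without the pairing, while ccna1, a cyclin of germ cells, differed by -0.67 ± 0.09 (adjusted p = 0.0334). Among heat shock genes and chaperones 10 of 27 tested members (29 on the array) were higher, or 37.0%, and 0 lower. The list median was 0.47, and none passed without the pairing, where 1.09% of all genes did. The mitochondrial chaperonin hspd1 stood at 0.62, 1.15 and 0.89 against 1.65, 2.00 and 1.70 (0.89 ± 0.10, adjusted p = 0.0276), and hsp90aa1.1, the chaperone of folding muscle myosin, differed by 0.80 ± 0.12 (adjusted p = 0.0361).

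In amino acid synthesis and the unfolded protein response 2 of 33 tested members (34 on the array) were higher with Hif-3α and 1 lower. These shares, 6.06% and 3.03%, stand beside 5.47% and 5.36% of all genes. phgdh, which opens serine synthesis, stood at 2.04, 2.47 and 2.35 with Hif-1α and at 3.04, 3.27 and 3.27 with Hif-3α (0.91 ± 0.09, adjusted p = 0.0272), and the asparagine synthetase asns differed by 0.85 ± 0.10 (adjusted p = 0.0316). The transcription factor cebpb was lower (-0.88 ± 0.11, adjusted p = 0.0316). In lipid uptake and storage 2 of 21 tested members (27 on the array) passed in each direction. Each share was 9.52%, beside 5.47% of all genes higher and 5.36% lower. dgat1b, which makes triglycerides, stood at 2.85, 2.70 and 2.62 against 1.01, 0.52 and 0.63 (-2.01 ± 0.11, adjusted p = 0.0112), and the lipoprotein lipase lpla at -2.19, -1.93 and -1.50 against -0.90, -0.69 and -0.35 (1.22 ± 0.09, adjusted p = 0.0172). In the interferon list 5 of 19 tested members (24 on the array) were lower, or 26.3%, and 0 higher with limma. Among them were irf1b at -1.79 ± 0.30 (adjusted p = 0.0410) and irf7 at -1.43 ± 0.17 (adjusted p = 0.0316). irf1b alone of this list passed without the pairing, and its second probe differed by -0.79 (adjusted p = 0.0618 over probes).

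The controls were then set beside the passing genes as levels, with no test. The control mean lay nearer to the Hif-3α mean than to the Hif-1α mean for 987 of the 1027 genes lower with Hif-3α and for 976 of the 1049 higher ones, against 71.5% of all genes tested. Among the lower genes the controls lay below both injections for 731 and between them for 294. Among the higher genes they lay above both for 625, between them for 406 and below both for 18. Over all 19178 genes tested, the controls lay below both injections for 7443, between them for 5791 and above both for 5944. On the arrays of scan day 3 alone, which held 2 control, 1 Hif-1α and 2 Hif-3α arrays, the controls lay nearer to Hif-3α for 928 of the lower and 946 of the higher genes, against 74.4% of all genes.

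The named genes were also compared by pair. All 123 named genes that passed had the same sign with the scan day as a block, as did 2067 of the 2076 passing genes. That block sets against each other the Hif-3α and Hif-1α arrays of scan day 3, which the call also used. With 1 Hif-1α array on that day, signs alone are given here. The sign held whichever replicate was left out as well. This follows from the pairs, since all 2076 passing genes had the same sign in all their pairs. Of the named genes 7, eno1b, gapdhs, scn1lab, slc22a13b, crx, pkma and cox6b1, passed without any 1 replicate, and 41 of the 123 passed without the pairing. With no filter on dim probes 2 of the 123 passed, and with normexp and the 75th percentile 0 passed with limma.

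**Figure D5:**
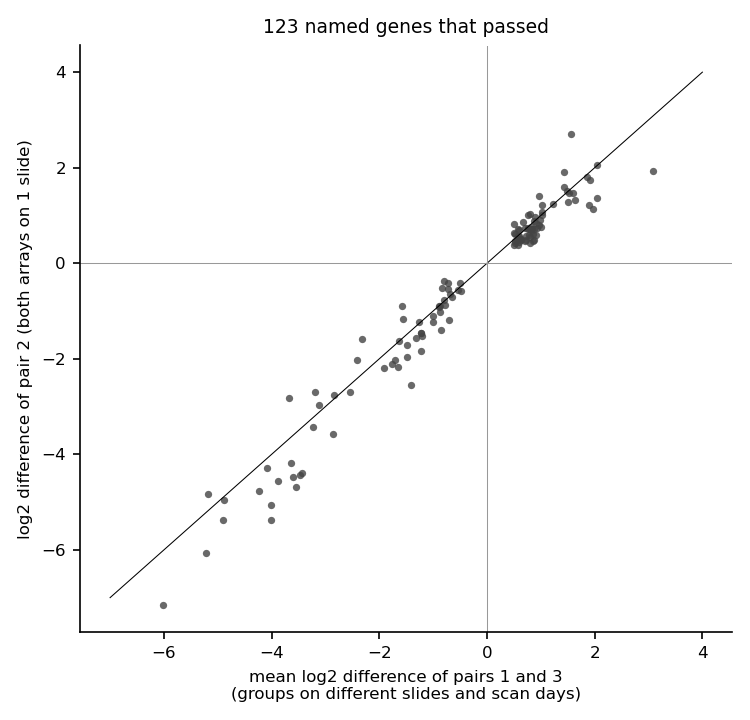
Log2 difference, Hif-3α minus Hif-1α, of the 123 named genes that passed, in pair 2, whose arrays share a slide (y axis), against the mean of pairs 1 and 3, whose arrays lay on different slides and scan days (x axis), with the line of equal values. Every point lies in a quadrant of equal sign, and eno1a stands at -7.15 in pair 2.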

How the data were processed

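The deposited scanner files hold the intensity of each spot on 1-colour Agilent arrays, which the authors' Feature Extraction software (10.7.3.1, per the file headers) had background-subtracted, with flags for spots well above background and for outliers. The deposited value table holds log2 values that the authors normalized between arrays with GeneSpring, per the series' design text; its method is not given in the sources used here. The headers name a zebrafish design built on danRer6, while the labelling protocol names a mouse array. Symbols came from RefSeq accessions through a table of assembly GRCz12tu, and 10500 of the 19178 genes or transcripts tested had one.

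Spots flagged as non-uniform outliers or as population outliers were left out. The processed signal was taken as log2 minus the 75th percentile of each array. Probes were kept when well above background on all 3 arrays of either group (30509 probes), and the brightest probe stood for a gene; 300 genes had a missing value. limma 3.58.1 in R 4.3.3 fitted Hif-3α minus Hif-1α with the replicate number as a block, with Benjamini-Hochberg adjustment over all genes; the fit was tested on simulated data. The precision is limited by the number of arrays, and the median SE was 0.11.

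The replicate numbers were used to pair the samples. Deviations from the group mean correlated at 0.53, 0.47 and 0.48 between samples of the same number (18878 genes). Between others they correlated at -0.38 to -0.03. The deviations of the 3 arrays of a group cancel, so positive values between the same numbers bring negative ones between others. The arrays of replicate 2 also shared a slide and a scan day. The series' design text names 3 microinjection experiments. The members and lists were chosen with earlier results of these data known. Named genes were the 15 highest and 15 lowest passing genes with a symbol, up to 4 passing members of each list in each direction by p, the HIF alpha probes and 20 genes of prior interest; the text gives a part of them. No per-sample column was left unmatched to a sample. Alternatives covered the pairing, scaling, background correction, filter, probes, scan day and replicates.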

Additional observations from a re-analysis of the deposited data

How the results depend on the processing

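With the pairing, 2076 genes passed. No replicate block left 209 genes with 6 arrays and 197 with 9, and a replicate block over 9 arrays gave 943. The normexp correction with the 75th percentile gave 0 genes with limma (905 at an unadjusted p under 0.05), where plin2 changed sign to 0.37 (adjusted p = 0.788), and normexp with quantile normalization gave 3340. No filter on dim probes gave 4 of 28550 tested, and each probe for itself 3184 of 30509. With the scan day as a block 3 genes passed, and within scan day 3 alone 0 passed with limma (1220 at an unadjusted p under 0.05). Leaving out 1 replicate gave 26 to 71 genes. Of the 2076, 452 differed at least 2-fold, a condition added after seeing the data. Median centring, quantile normalization, the deposited table, the mean over probes and a filter on all 6 arrays gave 1667 to 3010 genes. Of the 123 named genes that passed, plin2 alone changed sign under these alternatives, each gene by its brightest probe. Other probes of aldoab, gclm, mcm7 and dmrt3a had the opposite sign and did not pass. Of the 4 that did not pass, vegfaa took either sign (-0.21 to 0.31) and igfbp1b was 0.30 with normexp and the 75th percentile. In pairs 1 and 3 the scan day and the injection cannot be told apart, and the cause of these shifts in count was not tested.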

Other observations

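Several lists held 1 or 2 passing genes, where 5.47% of all genes were higher and 5.36% lower. The shares higher in the neural crest (7.69%) and circadian clock (6.25%) lists were not below that of all genes. Of 77 tested cytosolic ribosomal protein genes 1 passed, rps8b, at 0.54, -0.24 and 0.18 with Hif-1α and -0.16, -0.88 and -0.49 with Hif-3α (-0.67 ± 0.09, limma adjusted p = 0.0324). Of 27 tested genes of p53 and its targets 1 passed, phlda3, a brake on the kinase Akt, which was higher with Hif-3α at -0.03, -0.64 and -0.29 against -0.78, -1.14 and -1.30 (0.75 ± 0.13, adjusted p = 0.0428). Of 23 tested notochord genes 1 passed, hapln1a (0.50 ± 0.09, adjusted p = 0.0437). In the neural crest 2 of 26 tested members were higher with Hif-3α, tfap2b (1.04 ± 0.14, adjusted p = 0.0345) and sox6 (0.60 ± 0.12, adjusted p = 0.0470). In the circadian clock 2 of 32 were higher, aanat2 and rorab, a nuclear receptor (0.72 ± 0.13, adjusted p = 0.0428). None of these other than aanat2, which is also in the neural list, is described above, and none passed without the pairing.

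Among IGF binding proteins and mTOR regulators 4 of 18 tested members were higher with Hif-3α and 2 lower. These shares, 22.2% and 11.1%, stand beside 5.47% and 5.36% of all genes. Without the pairing igfbp1a and sesn3 alone passed, both lower. Beside igfbp1a and ddit4, sesn3, a stress-induced brake on mTOR, stood at 4.72, 4.59 and 4.36 with Hif-1α and 3.74, 3.67 and 3.55 with Hif-3α (-0.90 ± 0.09, adjusted p = 0.0272). The binding proteins igfbp5b and igfbp7 were higher by 0.68 ± 0.12 (adjusted p = 0.0437) and 0.79 ± 0.14 (adjusted p = 0.0444). Of the other igfbp5b probes, that at 0.55 passed, and those at 0.60, 0.56 and 0.64 did not (limma over probes, adjusted p = 0.0540, 0.0947 and 0.0599). A second igfbp7 probe, at 0.63 ± 0.22, did not pass either (adjusted p = 0.123).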
